A study of Mus musculus with 42 samples.

Results

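The comparison described here is the 12 h response of synovial fibroblasts labelled as TSG-6 knockout to recombinant TSG-6 given together with hyaluronan (HA). Its members were chosen by their titles and are 12 of the 42 arrays of the study, namely 4 arrays of cultures treated with both agents and 8 arrays of untreated cultures. Synovial fibroblasts are connective tissue cells that line the joint. They were grown from the joints of female BALB/c mice that had become arthritic after intraperitoneal immunisation with 100 ug of cartilage proteoglycan in 2 mg of the adjuvant DDA. All groups share that background. The knockout-labelled cells came from mice that lack Tnfaip6, which encodes TSG-6, and were passaged up to 6 times in medium with 10% fetal calf serum. They were held overnight in 0.5% serum and then treated for 12 h with recombinant mouse TSG-6 at 120 ug/ml plus HA at 24 ug/ml, or left untreated. The same design gave knockout-labelled cultures with TSG-6 alone (3 arrays) and HA alone (4 arrays) at the same concentrations, and wild-type cultures untreated (5 arrays) or given both agents (2 arrays). TNFa at 5 ng/ml (4 knockout-labelled arrays) is used below for side by side values. A further 4 knockout-labelled arrays had LPS at 200 ng/ml. Wild-type cultures given TNFa, LPS, TSG-6 or HA had 2 arrays each. All of these enter the fit to 42 arrays and the medians that set 0, but they are not compared here. The labels give the cultures of a group as biological replicates, but whether each had its own mouse or shared a source with others is unstated. P-values treat the arrays as independent and measure only the spread between the cultures of the study.

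TSG-6 is a secreted protein of inflamed tissue that binds HA through a link module and helps to move the heavy chains of inter-alpha-inhibitor onto HA. HA is a long unbranched sugar polymer of the extracellular matrix, abundant in joint fluid. It is made at the cell surface by the HA synthases and bound by the receptor CD44 and by matrix proteoglycans such as versican. Fibroblasts of the joint lining make much of this HA, together with matrix-degrading enzymes, chemokines and cytokines when the joint is inflamed.

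The values are log2 signals of 1 probe set per gene, each given by the depositors relative to the median of that probe set over all 42 arrays. A value of 0 therefore marks the middle of the study and no absolute level is known. Each difference is given in log2 units with an SE from limma, a linear model with a moderated variance that was fitted to all 42 arrays and 18194 genes. P-values are adjusted by the Benjamini-Hochberg method within a comparison, and a gene is said to have risen or fallen when its adjusted p was below 0.05. The arrays of the knockout-labelled cells divide into a pair of sets, called culture sets here, found from the values and not named in the labels. The 12 probe sets that gave this split include those of the endothelial genes Cdh5 and Emcn, and of Tnmd and Wif1. What the sets stand for was not tested. Set a holds untreated replicates 1 to 4 and treated replicates 1 and 2, and set b the others. The 18S ribosomal RNA probe set was above 1 on untreated replicates 7 and 8 and on treated replicates 2 and 4, and some counts are also given without the 15 such arrays of the study. The probe set of Tnfaip6 read 0.01, 0.09, -0.27 and 0.89 on the treated arrays and -0.41 to 0.25 (median -0.10) on the untreated ones, and its difference, 0.29 ± 0.17, missed the threshold (adjusted p = 0.331). Without the high 18S arrays that difference was -0.01 ± 0.19. How that probe set lies to the targeted stretch of the gene is unstated, and it checks nothing about the knockout. Over all genes 3.33% rose and 6.61% fell, and the marker counts here are to be read beside these shares. In lists this short a single call is close to them. Of the 15 synovial fibroblast markers 3 rose and 1 fell. The fall was that of Vim (-0.29 ± 0.07 in a fit of every probe set, other probe sets -0.21 and -0.27). The lining lubricant Prg4, which was 1.26, 1.14, 1.39 and 1.06 on treated and -0.05 to 0.35 on untreated arrays, rose by 1.07 ± 0.20 (adjusted p = 0.000304). Of the markers of endothelial, T and NK, B and plasma, dendritic, smooth muscle, osteoblast and Schwann cells, 0 passed the test. The 14 endothelial markers averaged -1.18 to -0.02 per treated array and -1.17 to 0.21 per untreated array. Of 15 macrophage markers, which averaged -0.17 to -0.05 per treated and -0.38 to -0.02 per untreated array, Csf1r rose (0.70 ± 0.17). Of 9 neutrophil markers, which averaged 0.35 to 0.43 per treated and -0.36 to 0.11 per untreated array, Camp and S100a8 rose, and their part in the results was not tested. Of 11 skeletal muscle markers the myosin chains Myh1 (-0.67 ± 0.16) and Myh2 (-0.68 ± 0.16) fell and the cardiac actin Actc1 rose (0.59 ± 0.11). Of 10 chondrocyte markers the transcription factor Sox9 fell (-0.73 ± 0.16, other probe sets -0.73 and -0.18). The Sox9 difference was -0.19 within the high 18S arrays and -1.03 within the others. The skeletal muscle markers averaged -0.01 to 0.16 per treated and -0.18 to 0.17 per untreated array, and the chondrocyte markers 0.06 to 0.35 and 0.16 to 0.51. Of 6 adipocyte markers 2 fell, as given below with the lipid genes.

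Under TSG-6 with HA 606 genes rose and 1203 fell, 9.94% of the genes tested (3.33% higher and 6.61% lower). Of these, 70 rose and 86 fell at least 2-fold. The rises were led by Olfm2, the inducible nitric oxide synthase Nos2, the protease inhibitor Tfpi2 and the gelatinase Mmp9. The falls were led by the G protein signalling regulator Rgs2, the laminin-related protein Ntn4 and the lipid droplet coat protein Plin4. In bulk cultures a smaller share of cells of 1 kind and less RNA per cell cannot be told apart. All 4 treated arrays lay above all 8 untreated ones for 315 of the genes that rose (1.73% of all genes), and below them for 692 of those that fell (3.80%). The count was 1111 genes without treated replicate 1 and 1080 (434 higher and 646 lower) without the high 18S arrays. Each culture set alone called 949 genes (set a, 268 higher and 681 lower) and 791 genes (set b, 357 higher and 434 lower). List counts from these fits are to be read beside these counts of all 18194 genes, and not beside the shares of the full fit. The sets shared 129 rises and 275 falls, and 0 genes went opposite ways.

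Olfm2 encodes an olfactomedin domain glycoprotein. It read 2.37, 1.87, 2.75 and 2.12 on the treated arrays and -0.63 to -0.01 (median -0.34) on the untreated arrays. Every treated culture was far above every untreated one, and the rise of 2.64 ± 0.16 (6.22-fold, adjusted p = 1.87e-13) was the largest among the genes whose groups did not overlap. Nos2, which makes nitric oxide in activated cells, read 2.34, 2.41, 1.82 and 1.60 against -1.10 to 0.43 (median -0.62). The treated arrays again stood clear of the untreated ones, with a rise of 2.56 ± 0.22 (5.92-fold, adjusted p = 7.19e-10). Tfpi2, a Kunitz-type inhibitor of plasmin and other serine proteases, read 1.71, 0.90, 0.89 and -0.01 against -2.36 to -0.66 (median -1.73). Its treated replicate 4 was the lowest but still above the highest untreated array, and the rise was 2.48 ± 0.41 (5.59-fold, adjusted p = 6.56e-05). The brain-type fatty acid binding protein Fabp7 read 1.18, 0.44, 2.00 and 1.82 against -1.30 to -0.57 (median -0.85), a rise of 2.21 ± 0.27 (4.64-fold). Mmp9, which cleaves denatured collagen, read 1.37, 1.25, 0.76 and 1.13 against -1.43 to -0.35 (median -1.02), a rise of 2.05 ± 0.19 (4.16-fold, adjusted p = 2.44e-09). Both genes had all treated arrays above the untreated range.

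The other 7 of the 12 largest rises were as follows. The alarmin S100a8 rose by 1.94 ± 0.40, the transcript U90926 by 1.94 ± 0.31 and the cytokine Il6 by 1.83 ± 0.37 (3.57-fold, adjusted p = 0.000793). Il6 read 0.69, -0.11, 0.89 and 0.61 on treated arrays and spread widely on untreated ones, from -2.59 to -0.21 (median -1.24). Tgfbi, an integrin-binding matrix protein induced by TGF-beta, read 2.08, 1.97, 2.22 and 2.37 against -0.62 to 1.07 (median 0.39), a rise of 1.79 ± 0.30. The treated arrays of Tgfbi lay close together, while the untreated ones differed among themselves nearly as much as the groups did. Fkbp11, a prolyl isomerase of the secretory pathway, rose by 1.65 ± 0.13 (adjusted p = 5.19e-11, other probe sets 0.14 and 0.11). The large HA-binding proteoglycan versican (Vcan) rose by 1.57 ± 0.17 and the potassium channel Kcnj15 by 1.55 ± 0.25. The bone-resorption cytokine Tnfsf11 (RANKL) and the chemokine Ccl5 had differences of the same size, 2.12 ± 0.43 and 1.83 ± 0.46, but treated and untreated arrays overlapped. Tnfsf11 read 0.96, -0.18, 1.85 and 1.69 against -2.31 to -0.03, and these genes were added to the text after their values were seen.

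Among the falls, Rgs2, which shortens signalling by G protein-coupled receptors, read -0.96, -1.48, -1.00 and -0.92 against 0.32 to 1.50 (median 0.80). The groups were separate, and the fall of -2.02 ± 0.16 (4.06-fold, adjusted p = 5.19e-11) was the largest of those without overlap. Ntn4, a netrin of basement membranes, read -0.61, -0.46, -0.79 and -0.76 against 0.82 to 1.84 (median 1.23), a difference of -1.95 ± 0.17 (3.87-fold). Plin4, a coat protein of lipid droplets, read -0.20, -0.08, -0.19 and 0.12 against 1.34 to 2.43 (median 1.89), a difference of -1.95 ± 0.18 (3.85-fold, adjusted p = 1.59e-09). Neither gene had a treated array within 1 log2 unit of the untreated median. Among the other falls, the steroid reductase family member Akr1c14 fell by 1.87 ± 0.41, the selenium-binding protein Selenbp1 by 1.77 ± 0.17, the choline dehydrogenase Chdh by 1.72 ± 0.16 and Hsd11b2, which inactivates glucocorticoids, by 1.75 ± 0.29. Hsd11b2 was nearly level on treated arrays (0.13, 0.09, 0.15 and 0.22) and spread from 0.49 to 3.15 (median 2.20) on untreated ones. Its difference was -1.07 in culture set a and -2.42 in set b, and all 4 untreated arrays of set b lay above those of set a. The matrix glycoprotein Sned1 (-1.85 ± 0.24), the interferon-induced Ifit3 (-1.82 ± 0.25), the small GTPase Gem (-1.70 ± 0.22), the lysosomal signalling GTPase Rragd (-1.69 ± 0.17) and Nckap5 (-1.66 ± 0.19) completed the 12 falls. Of the 24 genes, 20 passed the test in both culture sets tested alone, and S100a8, Il6, Tgfbi and Akr1c14 did not. The genes were chosen on these same arrays for groups without overlap. Passing in each set is thus favoured by the choice and is no independent check.

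**Figure D1:**
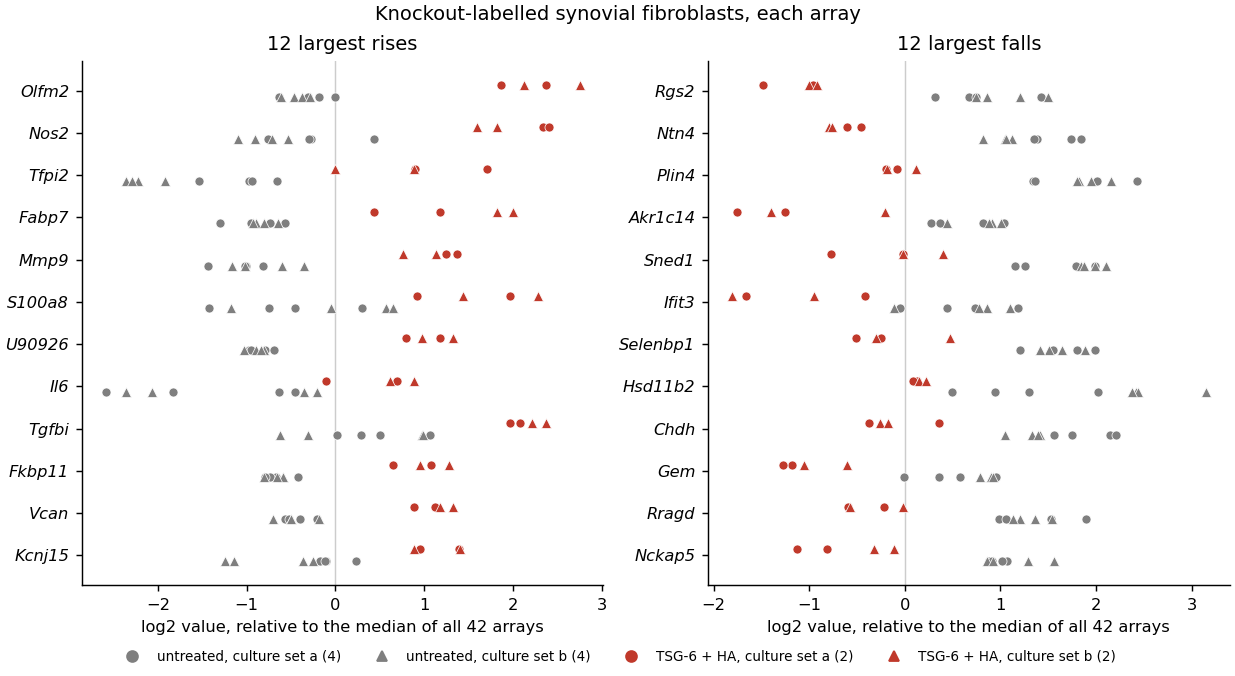
Log2 values, relative to the median of all 42 arrays, of the 12 largest rises and 12 largest falls in knockout-labelled cultures, with 1 point per array (grey for 8 untreated, red for 4 given TSG-6 with HA, circles for culture set a and triangles for set b). The rule that chose these genes asked for groups that do not overlap, so the gap between red and grey is part of the choice, while its width differs from Il6 with a wide untreated spread to Olfm2 with a narrow one.

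The genes that make, bind and break down HA were examined as a list because the treatment is HA with a protein that binds it. Of 37 measured, 6 rose and 0 fell, and the list had a median difference of 0.16 beside 0.01 for all genes. Versican read 1.12, 0.88, 1.33 and 1.18 on treated and -0.70 to -0.18 (median -0.50) on untreated arrays, with an adjusted p of 5.95e-08. Brevican (Bcan), a related HA-binding proteoglycan, read 0.52, 0.57, 0.68 and 0.23 against -0.58 to 0.04 (median -0.28) and rose by 0.77 ± 0.15 (adjusted p = 0.000551). These were the members that rose with no overlap between groups. The other probe set of Bcan gave 0.22 ± 0.11 and missed the test in a fit of every probe set (limma adjusted p = 0.269). The synthase Has2 read 0.83, 0.13, 0.68 and -0.07 against -1.25 to 0.04 (median -0.48) and rose by 0.90 ± 0.22 (adjusted p = 0.00526). Its treated replicate 4 lay inside the untreated range. The HA receptor Cd44 read 0.25, -0.39, 0.06 and -0.25 against -1.70 to -0.19 (median -0.63) and rose by 0.62 ± 0.20 (adjusted p = 0.0405), with overlap. The link proteins Hapln1 and Hapln4, which fix proteoglycans to HA, rose by 0.91 ± 0.29 (adjusted p = 0.0423) and 0.50 ± 0.16 (adjusted p = 0.0376). The other synthases gave 0.32 ± 0.15 (Has1) and 0.47 ± 0.16 (Has3, adjusted p = 0.0517), and the hyaluronidase Hyal2 gave -0.22 ± 0.07 (adjusted p = 0.0549), none past the test. The receptors Lyve1, Stab1, Stab2, Layn, Tlr2 and Tlr4 had differences from -0.31 (Stab2) to 0.16 (Stab1), and the HA-degrading Cemip -0.32. The heavy chains of inter-alpha-inhibitor, Itih1 to Itih5, ranged from -0.23 (Itih2) to 0.23 (Itih5), and the pentraxin Ptx3, a partner of TSG-6 in HA matrices, gave 0.44 ± 0.23 (adjusted p = 0.285).

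Of 24 chemokines measured, 10 rose and 1 fell, with a median difference of 0.37. Ccl17, an attractant of T cells, read 0.55, 0.37, 0.48 and 0.22 against -1.17 to -0.06 (median -0.53) and rose by 1.06 ± 0.15 (adjusted p = 1e-05). Cxcl16 rose by 0.90 ± 0.13. The neutrophil attractants Cxcl3, which read 0.46, 0.73, 0.39 and 0.46 against -0.76 to -0.08 (median -0.45), and Cxcl2, which read 0.25, 0.02, 0.32 and 0.02 against -0.94 to -0.13 (median -0.54), rose by 0.93 ± 0.15 and 0.71 ± 0.13. In all 4 chemokines each treated array was above each untreated one, and the member that fell was Cxcl10 (-1.06), an interferon-induced attractant. NF-kB targets and feedback genes gave 5 rises and 1 fall among 18, with a median of 0.03. The mitochondrial superoxide dismutase Sod2 (1.21 ± 0.13, adjusted p = 6.86e-08), Nfkbiz (0.60 ± 0.10) and Bcl3 (0.49 ± 0.11) rose and the adhesion receptor Icam1 fell (-0.44 ± 0.12). Of 29 cytokines and growth factors 5 rose and 3 fell, the falls including Tgfb2 (-0.49 ± 0.11) and Il18 (-0.49 ± 0.11). NF-kB genes gave 3 rises and 0 falls without the high 18S arrays, and cytokines and growth factors 5 rises and 1 fall. Sod2, Nfkbiz and Bcl3 had all 4 treated arrays at or above 0, whereas Il6 and Tnfsf11 varied more between arrays.

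Promoters of the neutrophil attractants are shown because Cxcl2 and Cxcl3, both in the chemokine cluster of chromosome 5, hold the same NF-kB type motif. The sequences are the 250 bases before the start site on the plus strand of GRCm38.p6, from RefSeq, written 5′ to 3′. Capitals mark matches of GGGANTTTCC on either strand, which start 97 bases (Cxcl2) and 73 bases (Cxcl3) before the start site.
Cxcl2 (chr5:90903649-90903898): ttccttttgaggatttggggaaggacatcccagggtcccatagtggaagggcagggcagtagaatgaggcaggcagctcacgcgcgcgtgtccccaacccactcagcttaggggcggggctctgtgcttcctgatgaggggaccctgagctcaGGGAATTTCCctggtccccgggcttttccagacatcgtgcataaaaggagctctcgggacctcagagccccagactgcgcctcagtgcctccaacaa
Cxcl3 (chr5:90785851-90786100): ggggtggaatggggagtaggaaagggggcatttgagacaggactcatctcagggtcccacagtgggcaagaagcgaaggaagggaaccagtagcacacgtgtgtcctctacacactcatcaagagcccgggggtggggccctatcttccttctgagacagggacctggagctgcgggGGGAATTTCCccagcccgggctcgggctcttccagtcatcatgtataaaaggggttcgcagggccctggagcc
Over windows of 300 bases (250 before to 50 after the start), this motif was in 0.385% of 27025 promoters and in 3 of the 16 chemokine promoters listed, those of Cxcl1, Cxcl2 and Cxcl3. A match describes the letters and is no evidence of binding.

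Of 28 interferon-stimulated genes measured, 8 fell and 0 rose, and the median difference was -0.43. Ifit3, which blocks translation of viral RNA, read -1.66, -0.42, -1.81 and -0.95 against -0.11 to 1.18 (median 0.75, adjusted p = 4.96e-06). Ifit2 read -0.99, -0.19, -0.93 and -0.14 against 0.30 to 1.48 (median 1.08) and fell by 1.55 ± 0.26 (adjusted p = 7.14e-05). For both genes the treated arrays were all below the untreated ones, and the high 18S replicates 2 and 4 were the less low. The transcription factor Irf1 fell by 0.54 ± 0.09 (adjusted p = 0.000128) with no overlap, and the nucleotide kinase Cmpk2 by 1.29 ± 0.24 (adjusted p = 0.000267) with overlap. The genes of MHC class I and the immunoproteasome, which cut and load peptides for T cells, gave 5 falls and 0 rises among 14, with a median of -0.35. The immunoproteasome subunit Psmb9 read -1.02, -0.51, -0.52 and -0.14 against -0.15 to 0.77 (median 0.30) and fell by 0.84 ± 0.17 (adjusted p = 0.000938). H2-M3 fell by 0.37 ± 0.07, and the peptide transporter subunits Tap1 and Tap2 by 0.39 ± 0.10 and 0.35 ± 0.09. Without the high 18S arrays 7 interferon-stimulated and 2 MHC class I genes fell.

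The promoter of Ifit3 is shown because the gene had the largest fall of the interferon list. Capitals mark its matches of the interferon response motif GAAANNGAAA, both read from the opposite strand, which start 156 and 122 bases before the start site (250 bases, GRCm38.p6, plus strand, RefSeq).
Ifit3 (chr19:34583279-34583528): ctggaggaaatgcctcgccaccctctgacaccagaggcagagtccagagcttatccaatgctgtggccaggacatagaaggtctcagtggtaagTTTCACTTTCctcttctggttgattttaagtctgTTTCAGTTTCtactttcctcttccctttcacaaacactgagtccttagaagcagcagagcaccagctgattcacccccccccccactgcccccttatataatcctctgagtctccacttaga
In the 300-base windows the motif was in 3.49% of all promoters and in 12 of the 21 interferon-stimulated genes with a window, including 3 (Ifit1, Ifit3 and Rsad2) of the 6 that fell and had one.

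Of 20 genes of cholesterol synthesis and uptake, 13 rose and 0 fell, with a median of 0.66. Squalene epoxidase (Sqle) read 0.05, 0.33, 0.02 and -0.13 against -1.35 to -0.56 (median -0.97) and rose by 0.99 ± 0.17 (adjusted p = 0.00015). Hmgcs1, which makes the HMG-CoA of the mevalonate pathway, read 0.05, 0.08, 0.10 and 0.10 against -1.43 to -0.50 (median -0.83) and rose by 0.95 ± 0.17 (adjusted p = 0.000171). The treated arrays of both genes lay within a narrow band above the untreated range. Farnesyl diphosphate synthase (Fdps) rose by 1.06 ± 0.21 and the lanosterol demethylase Cyp51 by 1.24 ± 0.25 (adjusted p = 0.000927). Over all arrays this was the largest share of members past the test among the pathway lists. Without the high 18S arrays 4 of the 20 rose, with a median of 0.50, a smaller share than the rises among chemokines (8 of 24), collagen chains (7 of 23) and contractile genes (6 of 21). The part of those arrays in the count was not tested. Set a alone called 9 as higher and set b alone 13, beside 268 and 357 of all 18194 genes. Of 12 fatty acid synthesis genes Scd2 (1.35 ± 0.24) and Fasn (0.46 ± 0.14) rose. Lipid storage and adipogenic genes gave 7 falls and 1 rise among 17, with a median of -0.28. The fall of Plin4 was joined by that of Pdk4, a kinase that restrains pyruvate oxidation, which read 0.10, 0.12, -0.06 and -0.01 against 1.33 to 1.85 (median 1.56) and fell by 1.55 ± 0.18 (adjusted p = 1.28e-07). Hormone-sensitive lipase (Lipe) fell by 0.54 ± 0.12, while Dgat2, which makes triglyceride, rose by 1.07 ± 0.13. Of these 17, 3 fell and 1 rose without the high 18S arrays. The 6 adipocyte markers averaged -0.39 to -0.10 per treated and -0.31 to 0.39 per untreated array. Of them the lipoprotein lipase Lpl (-1.22 ± 0.32, adjusted p = 0.00996) and the adipogenic regulator Pparg (-0.61 ± 0.16, adjusted p = 0.0124), which both lists hold, fell. The adipocyte hormones Adipoq and Lep gave -0.08 and 0.08, and the part of such cells in the lipid gene counts was not tested.

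The Hmgcs1 promoter is printed as the cholesterol promoter in which the sterol response motif was found, and it also holds the CCAAT box. Capitals mark the sterol response motif TCACNCCAC, starting 137 bases before the start site, and the CCAAT box, read here from the opposite strand and starting 237, 176 and 45 bases before it (250 bases, GRCm38.p6, plus strand, RefSeq).
Hmgcs1 (chr13:119690101-119690350): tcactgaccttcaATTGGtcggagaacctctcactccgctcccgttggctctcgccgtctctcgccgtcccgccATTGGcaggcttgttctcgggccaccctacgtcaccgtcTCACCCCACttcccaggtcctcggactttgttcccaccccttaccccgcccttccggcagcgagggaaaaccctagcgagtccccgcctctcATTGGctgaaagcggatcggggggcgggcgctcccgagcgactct
In the 300-base windows the sterol motif was in 1.22% of all promoters and, among the 16 cholesterol genes with a window, in Hmgcs1 alone. The CCAAT box was in 37.9% of all promoters and in 15 of those 16.

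Some matrix and contractile genes rose. Of 23 collagen chains 7 rose and 0 fell, while the median of 0.02 was that of most genes. Col5a3 read 0.16, -0.10, 0.38 and 0.11 against -1.45 to -0.68 (median -1.22) and rose by 1.31 ± 0.13 (adjusted p = 6.04e-09, other probe set 0.15). Col8a2, a chain of short network collagen, read 1.87, 1.66, 2.07 and 2.04 against 0.03 to 0.90 (median 0.41) and rose by 1.49 ± 0.17. The fibrillar chains Col3a1 and Col5a2 rose by 1.36 ± 0.20 (adjusted p = 8.26e-06) and 0.96 ± 0.13. None of these 4 chains overlapped between groups. Of 18 collagen processing enzymes 6 rose, after Fkbp11 the prolyl hydroxylases P4ha2 (0.39 ± 0.09) and P3h1 (0.56 ± 0.14) and the cross-linking oxidase Loxl3 (0.43 ± 0.11). Among 21 metalloproteinases, aggrecanases and inhibitors 6 rose and 1 fell. The inhibitor Timp1 read 0.54, 0.49, 0.56 and 0.52 against -0.49 to -0.10 (median -0.31) and rose by 0.85 ± 0.07 (adjusted p = 2.3e-10). The aggrecanase Adamts4 rose by 1.01 ± 0.16 (other probe set 0.18), the macrophage elastase Mmp12 by 0.95 ± 0.13, and Mmp11 fell by 0.84 ± 0.16. Of 21 contractile and myofibroblast genes 7 rose and 0 fell, with a median of 0.43. The myosin light chain Myl9 read 0.82, 0.42, 0.79 and 0.59 against -1.64 to 0.30 (median -0.79) and rose by 1.38 ± 0.29 (adjusted p = 0.00105), filamin Flna by 0.53 ± 0.12, calponin Cnn2 by 0.35 ± 0.08 and Tgfb1i1 by 0.43 ± 0.11. Set b alone called 9 contractile genes as higher and set a alone 1, beside 357 and 268 of all 18194 genes. The difference between the sets was not tested. The 9 smooth muscle and pericyte markers, of which 0 passed the test, averaged -0.30 to 0.22 per treated and -0.35 to 0.42 per untreated array.

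Immediate early genes and signalling brakes, which are switched on within minutes by growth factors, gave 2 rises and 7 falls among 28. After Rgs2, the transcription factors Egr3 (-1.47 ± 0.22, other probe set 0.02), Egr1 (-1.09 ± 0.17, adjusted p = 3.88e-05) and Egr2 (-0.89 ± 0.16) fell. Egr1 read -0.16, -0.44, -0.53 and -0.49 against 0.28 to 1.13 (median 0.65), with no overlap. Of 24 hypoxia and glycolysis genes 6 rose and 1 fell. Pfkfb3, which speeds glycolysis, read 0.90, 0.94, 0.88 and 1.01 against -0.62 to 0.14 (median -0.28) and rose by 1.19 ± 0.15, hexokinase Hk2 rose by 0.83 ± 0.12, and Ndrg1 fell by 1.38 ± 0.20. With the high 18S arrays left out, 2 rose and 1 fell. Of 25 Wnt ligands, receptors and antagonists 0 passed the test, and of 33 cell cycle genes 1 fell.

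**Figure D2:**
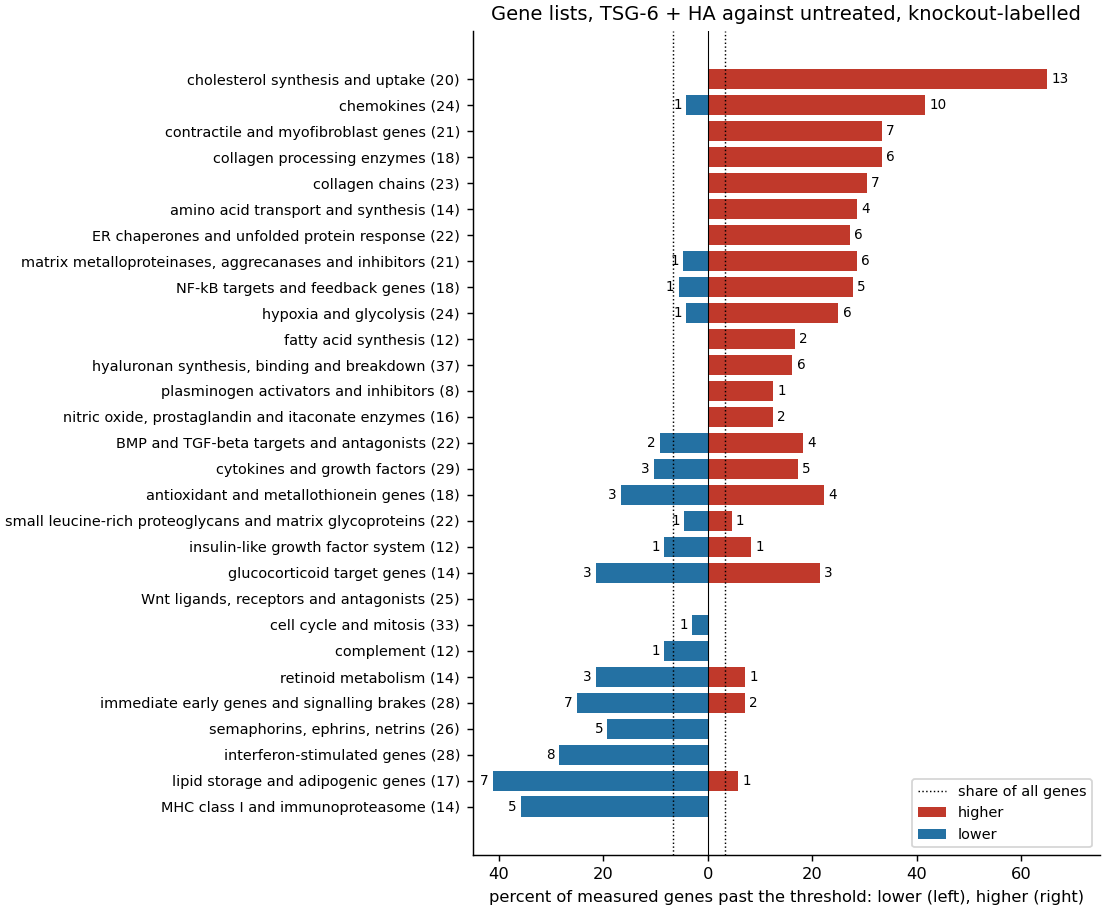
Percent of each gene list's measured members that fell (blue, left) or rose (red, right) under TSG-6 with HA in knockout-labelled cultures, with the count at each bar, the number measured in brackets and dotted lines at the share of all genes (6.61% lower, 3.33% higher). In this fit of all arrays cholesterol synthesis has the longest bar of rises (13 of 20), and lipid storage (7 of 17), MHC class I (5 of 14) and interferon-stimulated genes (8 of 28) the longest bars of falls.

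To ask whether HA changed the response to TSG-6, the 4 arrays with both agents were set against the 3 with TSG-6 alone at the same concentration. In limma 0 of 18194 genes passed the test (0%), with 612 at an unadjusted p under 0.05 and a smallest adjusted p of 0.999. All differences lay between -0.87 and 0.83. The 95% interval of the difference stayed within 1 log2 unit (2-fold) either way for 17687 genes (97.2%) and for 1786 of the 1809 genes called against untreated cultures (98.7%), with a median reach of 0.30 on each side. These intervals are not adjusted for the number of genes. Differences larger than their reach could therefore also miss the test at this number of arrays. Olfm2 read 1.98, 1.12 and 2.27 with TSG-6 alone, within or below the range with both agents, and its difference was 0.49 with an interval from 0.08 to 0.90 (adjusted p = 0.999). Versican read 1.32, 0.78 and 1.12 with TSG-6 alone, a difference of 0.05 (interval -0.38 to 0.49). Ifit3 read -1.13, -0.84 and -1.40, a difference of -0.08 (interval -0.73 to 0.56). For both genes the groups overlapped. Rgs2 read -0.64, -0.87 and -0.61, a difference of -0.38 (interval -0.78 to 0.01) with every array of both agents below every array of TSG-6 alone. The intervals of Tfpi2, S100a8, U90926, Il6 and Akr1c14 reached past 2-fold and so allow a difference of that size.

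HA alone gave a smaller set of changes. The comparisons of TSG-6 alone, HA alone and both agents with untreated cultures all use the same 8 untreated arrays, so their values are set side by side without a test of likeness. TSG-6 alone changed 864 genes (4.75% of all, 2.10% higher and 2.65% lower) and HA alone 117 (0.643%, 0.429% higher and 0.214% lower). The 24 named genes were chosen for their difference with both agents, which favours the largest medians there and is no measure of relative strength. For the 12 largest rises the median difference was 1.94 with both agents, 1.77 with TSG-6 and 0.80 with HA, and 12 of them rose with TSG-6 and 2 with HA. For the 12 largest falls the medians were -1.79, -1.60 and -0.42, and 11 fell with TSG-6 and 5 with HA. Cholesterol genes gave 11 rises of 20 with TSG-6 (median 0.76) and 0 with HA, though all 20 differences with HA were above 0 (median 0.36). Interferon-stimulated genes gave 5 falls of 28 with TSG-6 (median -0.42) and 1 rise with HA (median 0.25). Chemokines gave 6 rises of 24 with TSG-6 and 8 with HA (medians 0.37 and 0.53). TNFa gave the interferon list 26 rises (median 1.13) and the MHC class I list 13 of 14, beside medians of -0.43 and -0.35 with both agents. TNFa raised 11 of 20 cholesterol genes (median 0.6) and 16 of 24 chemokines (median 0.9), the same direction as with both agents. Contractile genes had a median of -0.21 with TNFa and 0.43 with both agents. Of the 12 largest rises 8 rose and 1 fell with TNFa, and of the 12 largest falls 8 fell and 1 rose. Over all genes TNFa raised 6.71% and lowered 7.32%.

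**Figure D3:**
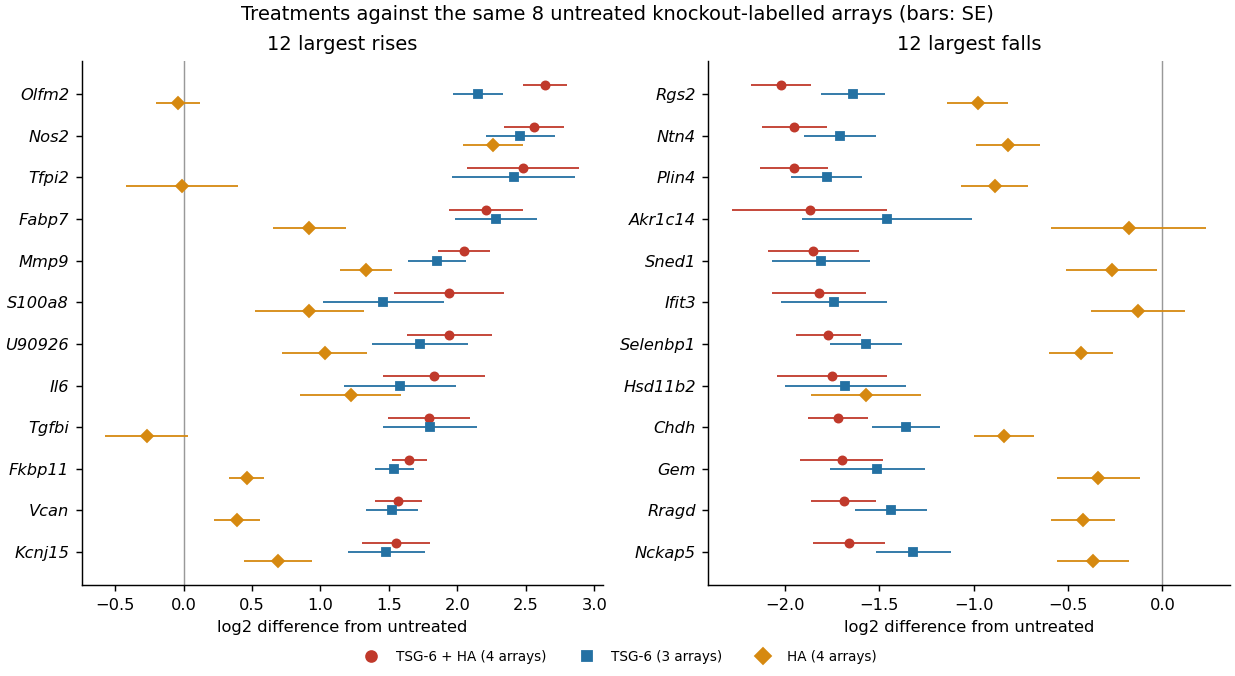
Log2 difference from the same 8 untreated knockout-labelled arrays, with SE bars, for the 24 genes named under TSG-6 with HA (red circles, 4 arrays), TSG-6 alone (blue squares, 3 arrays) and HA alone (orange diamonds, 4 arrays). Red and blue points lie close together for each gene, and the HA points of Nos2 (2.26) and Hsd11b2 (-1.57) lie beside them while those of Olfm2 (-0.04), Tfpi2 (-0.01) and Tgfbi (-0.27) lie near 0. The genes were chosen by the red values.

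Set directly against HA alone (4 arrays against 4), the combination gave 115 higher and 210 lower genes, 1.79% of those tested (0.632% higher and 1.15% lower). Olfm2 read -0.24, -0.49, -0.45 and -0.44 with HA and was higher with both agents by 2.68 ± 0.19 (adjusted p = 8.53e-12). Tfpi2 read -1.24, -1.24, -2.06 and -1.94 with HA, a difference of 2.49 ± 0.47 (adjusted p = 0.00187). In neither gene did the groups overlap. Tgfbi (2.06 ± 0.35), Col8a2 (1.76 ± 0.20) and the neural cell adhesion molecule Ncam1 (1.54 ± 0.20, adjusted p = 1.38e-05) followed. On the lower side Ifit3 read 0.01, 1.17, -0.36 and 1.12 with HA, a difference of -1.69 ± 0.29 (adjusted p = 0.000616). The HA arrays of Ifit3 differed by over 1 log2 unit among themselves, yet all were above the 4 with both agents. Sned1 (-1.58), the membrane-spanning antiviral protein Ifitm1 (-1.58 ± 0.22, adjusted p = 4.17e-05), Cmpk2 (-1.55 ± 0.27) and Mamdc2 (-1.51 ± 0.24) were the next. Of 28 interferon-stimulated genes 14 were lower and 0 higher than with HA alone (median -0.74), and of 14 MHC class I genes 10 were lower and 0 higher (median -0.56). Psmb9 read 0.60, 0.78, 0.90 and 1.22 with HA, all above 0, against -1.02 to -0.14 with both agents, a difference of -1.42 ± 0.20 (adjusted p = 3.23e-05). Of the hyaluronan genes Vcan (1.19 ± 0.20) and Bcan (0.65) were higher. The count depended on single arrays, being 169 without treated replicate 1 and 179 without treated replicate 3, and it was 51 in a fit of these 8 arrays alone, where Ifit3, Ifitm1 and Cmpk2 lost their call. It rose to 665 under quantile normalization, 711 with array weights and 820 with the culture set as a block.

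A further contrast asked whether the response to both agents equalled the sum of the single responses on the log2 scale. A departure from the sum passed the test for 3 genes (0.0165%), all below it, with 539 genes at an unadjusted p under 0.05. The 95% interval of the departure stayed within 2-fold for 16904 of 18194 genes (92.9%) but for 8 of the 24 named. Genes without a call are thus not shown to be additive. Hsd11b2 departed by 1.51 (interval 0.58 to 2.43) and Mmp9 by -1.13 (-1.75 to -0.51), neither with a call. Median departures were -0.43 for cholesterol genes, -0.49 for chemokines and 0.04 for contractile genes. Nos2 was -1.10 to 0.43 untreated, 2.09, 2.06 and 1.67 with TSG-6 and 2.15, 2.05, 1.53 and 1.24 with HA. The arrays of each agent alone overlapped those of the combination, and the departure was -2.16 ± 0.36 (adjusted p = 0.00639). Cxcl2 read 0.61, -0.02 and 0.27 with TSG-6 and 0.75, 0.87, 0.70 and 0.36 with HA, and its departure was -1.36 ± 0.22 (adjusted p = 0.00586). All 4 HA arrays of Cxcl2 were above all 4 with both agents, although that direct difference of -0.52 missed the test (adjusted p = 0.085). Camp, an antimicrobial peptide of neutrophil granules, read 1.11, 1.20 and 1.12 with TSG-6, 0.60, 0.81, 0.65 and 0.77 with HA and 0.96, 1.24, 0.86 and 1.15 with both, and its departure was -0.87 ± 0.15 (adjusted p = 0.00682). The arrays with both agents overlapped those with TSG-6 alone. The 3 calls were lost in a fit of these 19 arrays alone, and under quantile normalization 1 gene was called above and 1 below the sum. With the culture set as a block 15 genes fell below the sum. Within the culture sets the departures of Nos2 were -2.03 (a) and -2.16 (b), those of Cxcl2 -1.43 and -1.29 and those of Camp -0.84 and -0.90, each without a call. Set b holds 1 array of TSG-6 alone, whose spread is taken to be that of the other groups.

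**Figure D4:**
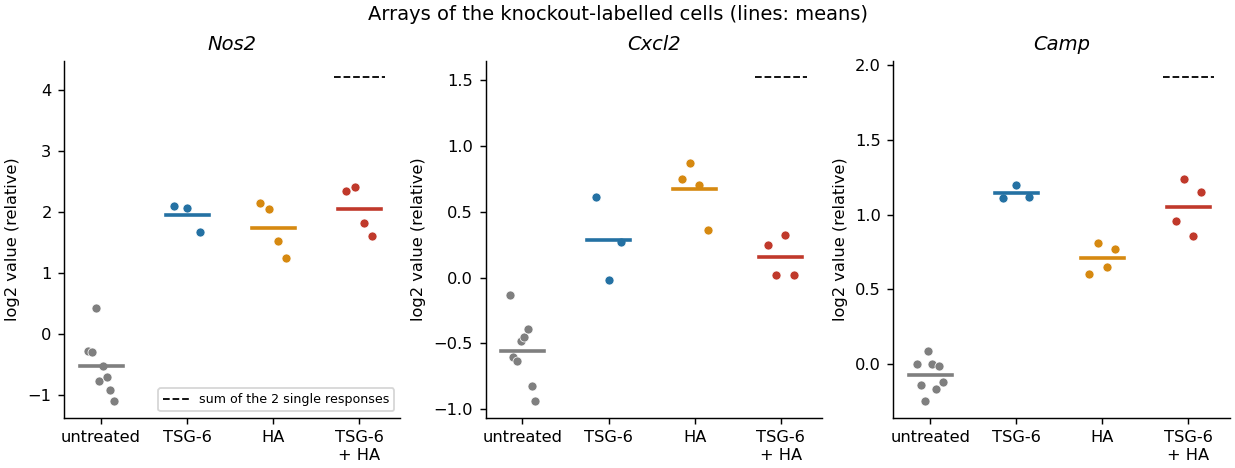
Log2 values relative to the median of all 42 arrays for Nos2, Cxcl2 and Camp in knockout-labelled cultures, with 1 point per array and a line at each group's mean, and a dashed line where the sum of the TSG-6 and HA responses would place the combination. In all 3 panels the 4 points with both agents lie below the dashed line, by 2.16, 1.36 and 0.87 on average.

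The same treatment in wild-type cultures (2 arrays against 5) changed 146 genes, 67 higher and 79 lower (0.802%, with 0.368% higher and 0.434% lower). These arrays share none with the knockout-labelled ones. Of the genes that rose in knockout-labelled cultures 40 also rose in wild-type ones (6.6% of 606 and 59.7% of 67), 46 fell in both (3.82% of 1203 and 58.2% of 79), and 0 went opposite ways. Olfm2 and Mmp9 rose by 1.55 and 1.87 in wild-type cultures, and Rgs2 and Sned1 gave -1.06 and -1.47. The largest wild-type rises were those of the growth factors Csf3 (3.79 ± 0.38) and Csf2 (3.13 ± 0.26), the neutrophil attractant Cxcl2 (2.70 ± 0.18), the plasminogen activator inhibitor Serpinb2 (2.62) and the attractant Cxcl3 (2.14). The falls were led by Cldn1 (-2.04), Ramp3 (-1.74), Cdo1 (-1.68), Cldn5 (-1.64 ± 0.25) and Id2 (-1.64). Of 28 interferon-stimulated genes 1 fell (median -0.35), of 20 cholesterol genes 0 passed the test, and of 24 chemokines 8 rose (median 0.64). The count was 395 without wild-type treated replicate 1, 59 without replicate 2 and 51 without the high 18S arrays, and quantile normalization gave 26 (23 higher, 3 lower). The fits without a treated wild-type array or without the high 18S arrays hold 1 treated wild-type array, whose spread is taken from the remaining groups. With the culture set, found separately in the wild-type arrays, as a block 448 genes were called.

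The response itself differed between the genotypes for 33 genes (0.181%), 7 with a higher (0.0385%) and 26 with a lower response (0.143%) in the knockout-labelled cultures. Csf2, the granulocyte and macrophage growth factor, read 3.31 and 3.31 on treated wild-type arrays against 0.46, 0.59, 0.62, -0.24 and -0.56 untreated. In knockout-labelled cultures it read -0.06, -0.06, 0.05 and -0.43 against -1.05 to -0.41 (median -0.84), a rise of 0.67 ± 0.19, and the responses differed by -2.46 ± 0.32 (adjusted p = 2.99e-05). Csf2 was thus higher in both genotypes with a far larger step in the wild-type arrays. Csf3 differed by -2.65 ± 0.47 (adjusted p = 0.00522), with 3.83 and 3.77 on treated wild-type arrays against -0.26 to 0.31 untreated, and a rise of 1.14 ± 0.28 in knockout-labelled cultures. Cxcl2 differed by -2.00 ± 0.23 (adjusted p = 5.37e-06), from -3.45 to -3.27 untreated to -0.57 and -0.79 treated in wild-type cultures, so that its wild-type values lay below the knockout-labelled ones of the same condition. Plin4, which fell in knockout-labelled cultures, read -0.53 and 0.08 on treated and -0.57 to -0.11 on untreated wild-type arrays, and its response differed by -2.09 ± 0.30 (adjusted p = 0.000159). The gluconeogenic enzyme Fbp1 (-1.94 ± 0.31) completed the 5 largest on that side among genes past the test. On the other side stood Cldn5 (1.51 ± 0.31), Tm6sf1 (1.34 ± 0.17), Sstr2 (1.23), the endothelial lectin Clec1a (1.13) and Zfand4 (1.02). The tight junction gene Cldn5 read 1.99 and 1.70 on treated wild-type arrays against 3.21 to 3.75 untreated, and gave -0.13 in knockout-labelled cultures. Of 24 chemokines 5 had a lower response in knockout-labelled cultures, Cxcl1 (-1.04), Cxcl2, Cxcl3 (-1.21), Cxcl16 (-0.99) and Pf4 (-0.95), and 0 a higher one.

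The wild-type cultures also differed in several marker lists. The 14 endothelial markers averaged 3.04 to 3.37 on treated and 3.37 to 3.61 on untreated wild-type arrays. No array was near the knockout-labelled ranges given above. On untreated arrays chondrocyte markers averaged -1.12 to -0.98 in wild-type and 0.16 to 0.51 in knockout-labelled cultures. Schwann cell markers averaged -1.04 to -0.59 and 0.13 to 0.42, and neutrophil markers -0.72 to -0.45 and -0.36 to 0.11. Synovial fibroblast markers averaged -0.58 to -0.25 and -0.07 to 0.19, and macrophage markers 0.05 to 0.13 and -0.38 to -0.02. The untreated ranges of the other marker lists overlapped. The part of these markers in the differences was not tested. The genotypes were grown as separate cultures, so genotype and culture cannot be told apart. Under quantile normalization 83 genes differed (36 higher, 47 lower), and Csf3, Csf2, Cxcl2, Fbp1 and all 5 genes named on the higher side lost their call, while Plin4 kept it. With the culture set as a block 211 genes differed. Without the high 18S arrays 7 genes differed and Csf3, Csf2, Plin4 and Fbp1 had no call, in a fit with 1 treated wild-type array. The count was 20 without wild-type treated replicate 2, 20 without knockout-labelled treated replicate 3 and 59 without wild-type treated replicate 1.

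**Figure D5:**
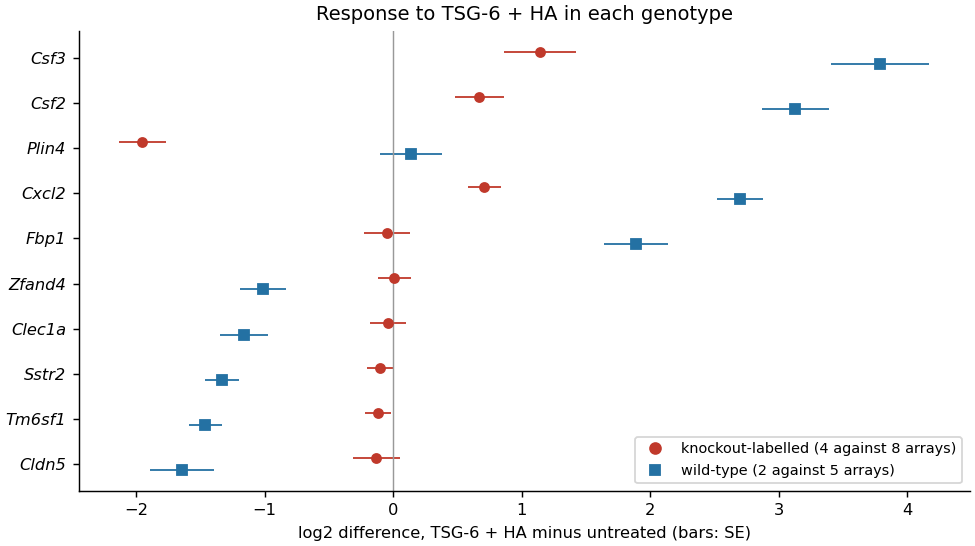
Log2 difference between cultures given TSG-6 with HA and untreated cultures, with SE bars, in knockout-labelled cells (red circles, 4 against 8 arrays) and wild-type cells (blue squares, 2 against 5 arrays) for the 5 genes with the largest difference between genotypes on each side among those past the test of that difference. Csf3, Csf2 and Cxcl2 lie above 0 in both with wild-type far to the right, Plin4 is low in the knockout-labelled cells alone, and the lowest 5 genes lie near 0 in knockout-labelled and below 0 in wild-type cells.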

How the data were processed

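Messenger RNA was hybridised as biotin-labelled cRNA to 42 one-colour Affymetrix arrays, 1 per labelled biological replicate. The deposited table holds RMA values on a log2 scale (RMA per the submitters' processing notes, version not given in the sources used here) for 45101 probe sets. Probe sets are centred, all medians across arrays being at 0 to within 1e-05. Base 2 (the largest range of a probe set is 9.81) and positive as higher were inferred, since scale, centring and direction are unstated. Medians per array ran from -0.0239 to 0.0252. Precision is limited by how many arrays a group has, and centred values show no signal over background.

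A single gene is listed for 34958 probe sets, several genes for 932 and no gene for 9211, and only the first kind was named; 34754 matched the gene table by gene number. Each of 18194 genes was represented by its probe set with the largest SD, avoiding the 506 that correlated above 0.7 with 18S ribosomal RNA unless a gene had no other (67 genes). Taking the largest SD can favour the probe set that moved most. In a fit of every probe set, other probe sets of several named genes missed the test. Among them were Rragd (-0.1 and 0.05), Sema7a (0.13), Csf1r (0.41 and 0.3), Cmpk2 (-0.47) and Skil (0.4). Other probe sets of Mmp9 (1.95), Ntn4 (-1.6) and Selenbp1 (-1.64) passed. The chosen probe sets of Cd44, Hapln1 and Slc1a4 missed the test in that fit (limma adjusted p = 0.0507, 0.0531 and 0.0536), while another of each gene passed. limma 3.58.1 (lmFit and eBayes, R 4.3.3) fitted 12 group means to all arrays, with 30 residual and 4.23 prior degrees of freedom; P-values were Benjamini-Hochberg adjusted within each comparison, with a threshold of 0.05. Summaries and figures used python 3.11.15, pandas 2.3.3 and matplotlib 3.10.9. The fit was tested on simulated data over 18194 genes.

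The text names the 12 largest rises and 12 largest falls without overlap between groups, the 5 largest each way of every other comparison, the hyaluronan genes, Tnfaip6 and the 4 members of each list with the smallest adjusted p, plus genes said to be added later and members of lists with 5 or fewer calls. The members and the 43 lists were chosen with earlier results of these data known. The culture sets were found from the data (12 of 13 probe sets that split every knockout-labelled group gave this split). The wild-type arrays were split separately, by 33 probe sets, and nothing links their sets a and b to those of the knockout-labelled arrays. Alternatives were other normalizations, probe set rules, filters, variance settings, array weights, blocks, each set alone and each array left out. Promoter sequences are RefSeq's (GRCm38.p6).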

Additional observations from a re-analysis of the deposited data

Results flagged for a closer look

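Single arrays stood apart from their group for 7 of the 120 groups of values examined, where chance alone marks about 1 in 20 groups. Rgs2 read -1.48 on treated replicate 2, with the nearest other treated array at -1.00, and Has1 read 0.37 on treated replicate 1, with the nearest at 0.14. Among the untreated knockout-labelled arrays, Has3 read 0.36 (nearest -0.12) and Spam1 -0.22 (nearest 0.01) on replicate 8. On replicate 7 Ugdh read -0.36 (nearest -0.10) and Tlr4 -1.01 (nearest -0.18), and on replicate 3 Cemip2 read -0.06 (nearest -0.33). Replicates 7 and 8 are the untreated arrays with a high 18S signal.

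The response differed between knockout-labelled and wild-type cultures for 33 genes. As knockout-labelled minus wild-type log2 response, the named ones were Csf3 (-2.65), Csf2 (-2.46), Plin4 (-2.09), Cxcl2 (-2.00), Fbp1 (-1.94), Chdh (-1.45, limma adjusted p = 0.00763), Nckap5 (-1.41, adjusted p = 0.0437) and Ntn4 (-1.31, adjusted p = 0.0453) on the lower side. Cldn5 (1.51), Tm6sf1 (1.34), Sstr2 (1.23), Clec1a (1.13) and Zfand4 (1.02) stood on the higher side.

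Of the 9211 probe sets listed with no gene, which the report does not use, 168 passed the test in knockout-labelled cultures given both agents (1.82%), 72 higher and 96 lower.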

How the results depend on the processing

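The 1809 genes changed by both agents became 3031 probe sets when each was tested, 1080 genes without the high 18S arrays, 949 in set a alone, 791 in set b alone and 1111 to 1872 with 1 array left out. Against HA alone, 325 genes became 51 with the groups compared only, 665 under quantile normalization, 522 by probe set, 711 with array weights, 820 under the culture block, 519 under a block for the 18S class (chosen after seeing the data), 118 in set a, 92 in set b and 169 to 369 with 1 array left out. Against TSG-6 alone the count was 0 under all alternatives run. The 3 departures from the sum became 0 with the groups compared only, 6 with 1 genotype, 6 with weights, 1 without the high 18S arrays, 15 with the culture block, 5 with the 18S block, 1 in set a, 0 in set b and 3 to 5 with 1 array left out. The 146 wild-type genes became 49 with the groups compared only, 94 with 1 genotype, 26 under quantile normalization, 72 with weights, 51 without the high 18S arrays, 448 with the culture block, 70 in set a, 260 in set b and 59 to 395 with 1 array left out. The 33 differences between genotypes became 13 with the groups compared only, 83 under quantile normalization, 18 with weights, 7 without the high 18S arrays, 211 with the culture block, 56 with the 18S block and 20 to 59 with 1 array left out. With the replicate number as a block the counts were 2413, 0, 760, 15, 487 and 89 in the same order. The labels do not say that a number marks a shared culture, and not every same-numbered pair deviated together from its group means. Treated arrays correlated with the untreated ones of their number by 0.585, -0.106, -0.064 and 0.221, with HA by 0.644, -0.023, 0.473 and 0.494 and with TSG-6 by 0.616, 0.426 and 0.084. With HA 3 of 4 treated arrays, with TSG-6 2 of 3 and with untreated arrays 1 of 4 correlated best with their own number. The untreated group has 8 arrays, so equal numbers need not match. Treated replicate 1 correlated with untreated 1 and 2 by 0.585 and 0.511. Treated 3 gave 0.408 and 0.55 with untreated 5 and 6, and treated 4 gave 0.34 and 0.394 with 7 and 8. Treated 2 gave 0.106 and 0.097 with untreated 3 and 4, and its highest value was 0.31 with 7. These are hints from the data and not the design, and whether arrays share a culture was not tested. Wild-type counts without a treated array, in 1 set or without the high 18S arrays, and set b departures, rest on a group of 1 array that is assumed to vary like the others. Tnfaip6 turned to -0.01 (adjusted p = 0.982) without the high 18S arrays. Except where the construction shows it (fewer arrays, probe sets in place of genes), the cause was not tested. Of the values of named genes against untreated cultures 669 kept direction and side of the threshold under the alternatives, 5 lost the call and 1 turned. Calls were lost for 9, 13, 19 and 39 values against HA, from the sum, in wild-type cultures and between genotypes. Most named genes were chosen by their values in the main fit, which favours keeping a call. Cyclic loess was not run on centred values (median centring of arrays was), and neither the culture sets alone nor a 1-genotype fit was made for the difference between genotypes.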

Other observations

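Several gene groups outside the account above also held members past the test in knockout-labelled cultures given TSG-6 with HA. Of 22 endoplasmic reticulum chaperones and unfolded protein response genes 6 rose and 0 fell (median 0.27), led by Creld2 (0.45 ± 0.07, limma adjusted p = 5.16e-05), Manf (0.58 ± 0.10) and Sdf2l1 (0.55 ± 0.12), which act in protein folding and secretion. Culture set a alone gave 0 rises and set b alone 4, beside 268 and 357 of all 18194 genes. Of 14 genes of amino acid transport and synthesis 4 rose, the mitochondrial folate enzyme Mthfd2 (1.28 ± 0.27, adjusted p = 0.00113), asparagine synthetase Asns (0.79 ± 0.20), the proline synthesis enzyme Aldh18a1 (0.60 ± 0.16) and the transporter Slc1a4 (0.79 ± 0.26). Mthfd2 read 0.40, -0.14, 0.20 and -0.23 on treated and -2.12 to -0.48 on untreated arrays, with no overlap. Of 26 semaphorins, ephrins and netrins 5 fell and 0 rose, among them Ntn4, the axon guidance proteins Sema7a (-0.80 ± 0.12, adjusted p = 1.26e-05) and Sema3e (-1.34 ± 0.30) and the receptor Plxna2 (-0.58 ± 0.15). Without the high 18S arrays 3 fell.

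Of 14 retinoid metabolism genes 3 fell and 1 rose. The alcohol dehydrogenase Adh1, which oxidises retinol, read 0.20, 0.25, -0.07 and -0.40 against 0.69 to 2.23 (median 1.60) and fell by 1.58 ± 0.26 (adjusted p = 5.82e-05), with no overlap. Cyp26b1, which degrades retinoic acid, fell by 1.29 ± 0.30 and Adh7 by 0.70 ± 0.19. The retinoic acid binding protein Crabp2 rose by 1.62 ± 0.48 (adjusted p = 0.025) with treated arrays spread from 0.30 to 3.53. Of the retinoid genes 1 fell and 1 rose without the high 18S arrays. Of 14 glucocorticoid targets 3 rose and 3 fell, Cdkn1c (-1.16 ± 0.18) and Sgk1 (-0.27 ± 0.08) falling with Hsd11b2 and Mt2 rising (0.38 ± 0.10), and without the high 18S arrays 0 rose and 2 fell. Of 22 BMP and TGF-beta targets and antagonists 4 rose, namely Skil (1.00 ± 0.18), Ltbp2 (0.59 ± 0.11), Fstl1 (0.53 ± 0.09) and Nog (0.42 ± 0.09), and 2 fell, with 3 rises and 1 fall without the high 18S arrays. Of 18 antioxidant and metallothionein genes 4 rose and 3 fell, the falls including the glutathione transferases Gsta4 (-0.74 ± 0.12) and Gstm1 (-0.56 ± 0.09), and without the high 18S arrays 1 rose and 3 fell.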
